A study of Mus musculus with 3 samples.

Results

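The glycoside hydrolase 18 family of mouse lung holds enzymes and proteins that look like enzymes. The true chitinases, acidic mammalian chitinase (Chia1) and chitotriosidase (Chit1), cut chitin, the N-acetylglucosamine polymer of fungal walls, mites and insects. The chitinase-like proteins Chil3 (Ym1), Chil4 (Ym2) and Chil1 (breast regression protein 39, the mouse counterpart of human YKL-40) keep the fold and bind sugars but do not cut chitin. Chil3 is a product of macrophages and neutrophils, and with Chil4 and Chia1 it is known as a gene induced by interleukin 4 and interleukin 13 in allergic airway disease.

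These 5 genes, chosen by symbol out of 32285 genes, were followed in single-cell RNA data of 3 mouse lung libraries. The treatment labels of the libraries read PD00, Model and Control, with 1 library each from mice of age 3 months. According to the series title ovalbumin (OVA) was the inducer, and PD00 is a peptidomimetic, a compound built to mimic a peptide. The labels call the tissue healthy in all 3 libraries, and give neither strain, dose, schedule, number of animals nor whether the PD00 library received ovalbumin. After filtering, the PD00 library had 9373 cells with 76914274 UMIs (unique molecular identifiers, each 1 captured RNA molecule), Model 11285 cells with 79690635 and Control 9368 cells with 77245146. Barcodes shared between libraries numbered 43 for PD00 and Model, 31 for PD00 and Control, and 37 for Model and Control. With 1 library per group there was no test and no replicate check, and each 95% interval covers counting error only.

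Cells were gated into 25 types by marker genes that leave out the 5 members. Cell types differed between libraries before any chitinase gene was read. Alveolar macrophages, the resident phagocytes of the air spaces, numbered 906 in PD00, 501 in Model and 2949 in Control. Macrophages with the Gpnmb and Trem2 marker list numbered 851, 937 and 14 in the same order. Airway secretory cells numbered 41 in PD00, 99 in Model and 1 in Control, and alveolar type 2 cells, which make surfactant, 35, 10 and 56. The check gene Pparg, not used for gating, had a UMI in 59.5% of gated alveolar macrophages of PD00, 50.1% of Model and 67.5% of Control, against 10.1%, 8.15% and 4.14% of the other cells. Other check genes separated less. Cd22 was found in 39.0% of gated B cells of PD00, 40.9% of Model and 27.8% of Control, against 17.0%, 12.2% and 28.8% of other cells, and Mki67 in 11.7% of immature neutrophils of Model against 14.1% of other cells. The alveolar type 2 gate was not pure. In 9 of its 35 PD00 cells, 1 of 10 Model cells and 23 of 56 Control cells the airway marker list held at least as many UMIs as the alveolar type 2 list. Those 23 Control cells had 647301 CPM of Scgb1a1, the club cell secretoglobin, and 35.4 CPM of Sftpc, the surfactant protein of alveolar type 2 cells. Both kinds of cell are therefore given apart below, a split added after the values were seen. T and B cells, which are not known as sources of these proteins, served as the measure of free RNA. A gate of at least 50 cells was called above that background when both its level in CPM (the gene's UMIs per 1000000 UMIs of the gate) and its UMIs per cell exceeded those of T and B cells by more than 2-fold at the lower end of the interval.

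The 5 genes lie in 2 groups in the mouse genome (GRCm38). On chromosome 3, Chia1 spans 106113229 to 106132120 on the plus strand, Chil3 106147554 to 106167564 on the minus strand and Chil4 106201490 to 106219507 on the minus strand. On chromosome 1, Chit1 spans 134111242 to 134151540 and Chil1 134182176 to 134190181, both on the plus strand. No other annotated gene overlaps any of the 5. The coding sequence at the active site shows which members can be enzymes. The lines below give the 8 codons that align with the catalytic motif of Chia1 and the codon after them, read from GENCODE transcripts of GRCm38, with the codon of the catalytic residue in capitals.
Chia1: gatggactggacctggactggGAAtac
Chit1: gatggccttgaccttgactggGAGttc
Chil3: gatggcctcaacctggactggCAGtac
Chil4: gatggcctcaacctggactggCAGtac
Chil1: gatgggctggatctcgcctggCTCtac
Chia1 and Chit1 carry a glutamate codon there, the acid that cuts the sugar chain. In Chil3 and Chil4 the codon reads glutamine and in Chil1 leucine. Chil3 and Chil4 are identical over this stretch and share 95.7% of 1194 aligned coding bases. Over the last 500 bases of their transcripts, where 3' libraries are read, 39 of 499 aligned bases differ, and the longest run they share is 126 bases. A read inside such a run could belong to either gene, so small Chil4 counts in cells full of Chil3 are uncertain.

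The 2 genes were also compared before their starts. The lines below show RefSeq promoter sequence of GRCm38.p6 on the minus strand, at chr3:106167565-106167814 for Chil3 and chr3:106219508-106219729 for Chil4, with matches to TTCNNNGAA, a pattern that STAT factors such as STAT6 can bind, in capitals.
Chil3: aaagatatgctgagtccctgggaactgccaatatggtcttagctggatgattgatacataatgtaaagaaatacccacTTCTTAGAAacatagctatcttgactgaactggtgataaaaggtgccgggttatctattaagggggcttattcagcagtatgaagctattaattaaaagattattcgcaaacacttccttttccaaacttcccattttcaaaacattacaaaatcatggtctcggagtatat
Chil4: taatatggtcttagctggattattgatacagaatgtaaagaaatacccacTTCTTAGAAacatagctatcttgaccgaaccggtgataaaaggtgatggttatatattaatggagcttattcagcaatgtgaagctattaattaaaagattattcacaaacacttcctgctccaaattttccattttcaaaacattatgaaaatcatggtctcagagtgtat
The pattern is its own reverse complement in form, so each match counts on both strands. It stood at -172 bases from the GENCODE start in Chil3 and at the same -172 bases in Chil4. It occurs in 8.30% of all 32851 promoter entries of this table and was not found in those of Chil1, Chia1 and Chit1. The same ends set 4 bases apart occur in 6.95% of entries and were found in none of the 5 members. A match is a description of letters and not a measured binding site.

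Over all kept cells, 3 of the 4 members with enough UMIs were at least 1.5-fold higher in Model than in Control, and the same threshold was passed by 12.3% of 15438 measured genes. Chil3 had 2225515 UMIs in Model and 86450 in Control, a ratio of 24.95 (24.8 to 25.1). Chil4 had 32761 UMIs in Model and 0 in Control, at least 10585-fold higher with Control set at 3 counts per library, and at least 459-fold after thinning. Chia1 had 1126 UMIs in Model and 172 in Control, a ratio of 6.35 (5.40 to 7.49), which became 3.65 with every cell thinned to 500 UMIs. With equal weight per cell type, over those of at least 20 cells in both libraries, it became 13.4. That left out all epithelial gates, which held 58.8% of the Chia1 UMIs of Model and 75.6% of Control. Chil1 had 1397 and 1135, a ratio of 1.19 (1.10 to 1.29). With equal weight over the same cell types, the alveolar type 2 gate left out, it became 1.81. Chit1 was hardly detected, with 9 UMIs in PD00, 7 in Model and 8 in Control, so no difference in it was detectable at this depth.

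Against Model, the PD00 library had 1 of the 4 measured members at least 1.5-fold lower, beside 7.29% of 15253 genes, and 1 at least 1.5-fold higher, beside 3.5%. Chil4 was the lower one, with 4240 UMIs in PD00 and 32761 in Model, 7.46-fold lower in PD00 (7.22 to 7.70). Chia1 was the higher one, with 2363 UMIs in PD00 and 1126 in Model, a ratio of 2.17 (2.02 to 2.34). With equal weight per cell type it became 1.35, but the alveolar type 2 gate, with 10 cells in Model, was left out there. Chil3, at 2979988 UMIs in PD00, had a ratio of 1.39 (1.385 to 1.390) to Model. Chil1, at 1829 UMIs in PD00, had a ratio of 1.36 (1.26 to 1.46), and 0.956 once every cell was thinned to 500 UMIs. The members therefore did not share a direction between PD00 and Model. Against Control, PD00 had ratios of 34.6 (34.4 to 34.9) for Chil3, 13.8 (11.8 to 16.2) for Chia1 and 1.62 (1.502 to 1.74) for Chil1, and Chil4 was at least 1419-fold higher. After thinning the ratio was 7.70 for Chia1 and 0.9994 for Chil1, and Chil4 was at least 68.6-fold higher. These 3 comparisons share their libraries.

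Of 195 combinations of gene, library and gate with at least 50 cells, 27 were above the T and B cell background, 12 of them for Chil3, 6 for Chil4, 6 for Chil1, 3 for Chia1 and 0 for Chit1. The calls of Chil1 and Chia1 in the alveolar type 2 gate of Control rest on all 56 cells, airway-rich ones included. Without the single cell that held most UMIs of the gene in the gate, 22 were above background. The 5 lost were Chil3 in ILC2 of Model, in interstitial macrophages of PD00 and in both monocyte gates of Control, and Chia1 in immature neutrophils of Model, where it had 5 UMIs.

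**Figure D1:**
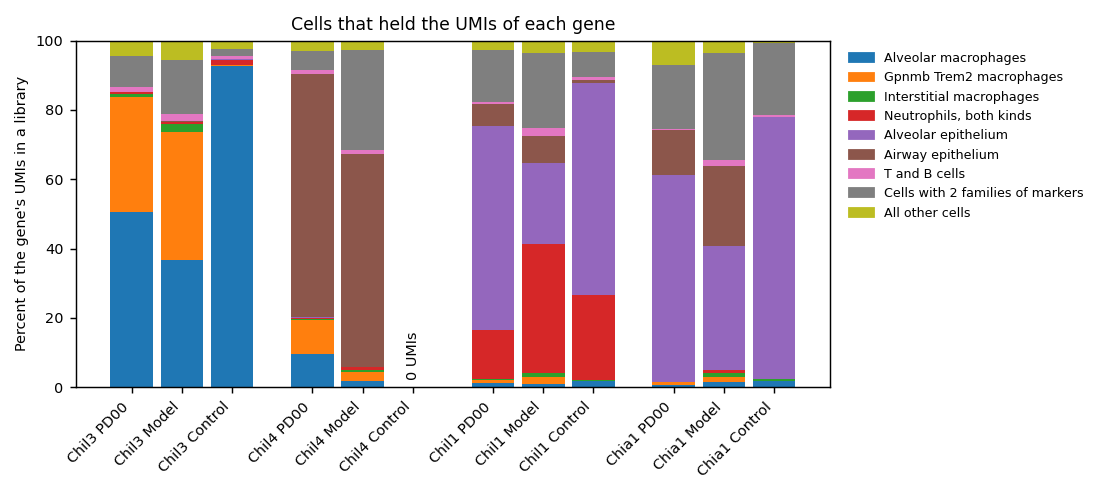
Stacked bars give the percent of each gene's UMIs, per library, that lay in each cell type; mixed cells carried marker lists of 2 families. Chil3 lay mostly in macrophages, Chil4 in airway epithelium, Chil1 in alveolar epithelium and neutrophils, and Chia1 in alveolar and airway epithelium, with 0 UMIs of Chil4 in Control.

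Chil3, which forms the Ym1 crystals seen in allergic mouse lung, was a macrophage transcript in all 3 libraries. Alveolar macrophages held 50.7% of its UMIs in PD00, 36.8% in Model and 92.6% in Control, and the Gpnmb Trem2 macrophages a further 33.2%, 36.8% and 0.302%. Alveolar macrophages had 84939 CPM of Chil3 in PD00, 84361 in Model and 1856 in Control. By UMIs, which count molecules and not length, Chil3 ranked 1 among all genes in these cells of PD00, 2 in Model and 49 in Control. The ratio within this gate was 45.4 (45.1 to 45.8) for Model to Control and 1.007 (1.0042 to 1.0096) for PD00 to Model. The excess of PD00 over Model across all cells stood beside a share of 9.67% alveolar macrophages among PD00 cells and 4.44% among Model cells.

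The single cells of this gate showed the same separation. In alveolar macrophages the median share of a cell's UMIs taken by Chil3 was 8.40% in PD00, 8.33% in Model and 0.171% in Control. The 5th percentile was 5.35% in PD00 and 4.43% in Model, while the highest Control cell was at 0.744%. A share of at least 1% was found in 903 of 906 PD00 cells, 501 of 501 Model cells and 0 of 2949 Control cells. Gpnmb Trem2 macrophages, defined by lipid handling and matrix genes, were wider, with medians of 7.37% in PD00 and 5.51% in Model and 5th percentiles of 0.248% and 0.178%. Their level was 69887 CPM in PD00 and 61249 in Model, a ratio of 1.14 (1.138 to 1.144).

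**Figure D2:**
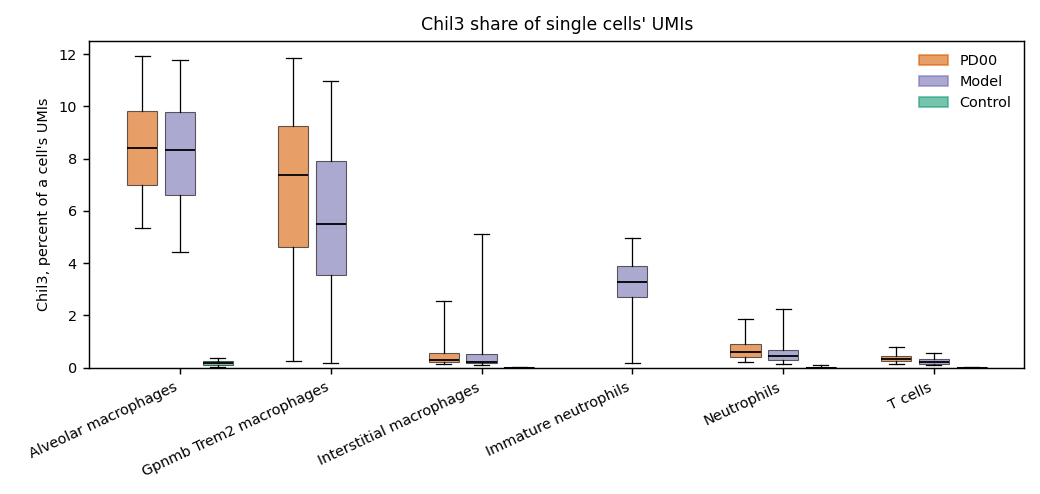
The vertical axis is the percent of a cell's UMIs that were Chil3, by gate and library; boxes span the quartiles with the median as a line, and whiskers reach the 5th and 95th percentiles. Alveolar macrophages sit near 8.40% in PD00 and 8.33% in Model and near 0.171% in Control, and immature neutrophils of Model near 3.28%.

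Because alveolar markers were themselves lower in Model, with a summed 1865 CPM in PD00, 1431 in Model and 4152 in Control alveolar macrophages, Chil3 was also read at equal numbers of detected markers. At 3 of 8 markers Chil3 was at 84244 CPM in PD00, 81091 in Model and 1812 in Control. At 6 markers it was at 83409 CPM in PD00, 85868 in Model and 1873 in Control. Within a library the level differed little from 3 markers on, while PD00 and Model stood apart from Control at each shared count. Cells with 0 alveolar markers, all from the Gpnmb Trem2 gate, were lower, at 56834 CPM in PD00 and 43001 in Model.

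**Figure D3:**
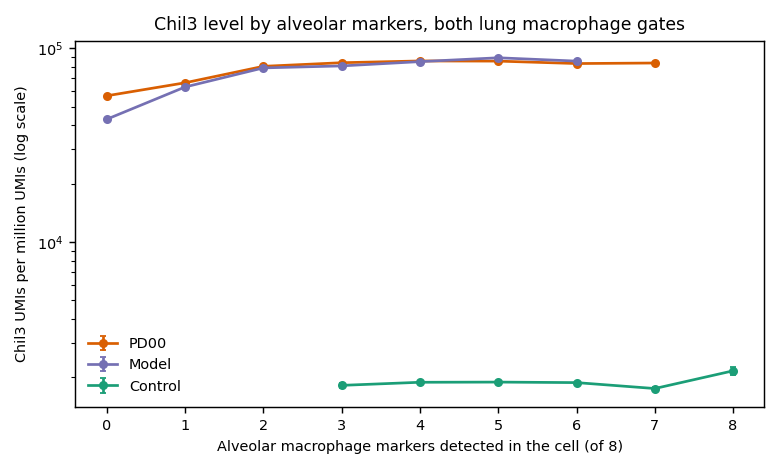
Chil3 in CPM (log scale) is plotted against the number of alveolar markers detected in a macrophage, for groups of at least 20 cells; bars are 95% counting intervals. From 3 markers on PD00 lies between 83409 and 86022 CPM and Model between 81091 and 89331, and Control stays between 1745 and 2155.

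Free Chil3 RNA was heavy in the libraries with high macrophage levels. T and B cells had 15.6 Chil3 UMIs per cell in PD00, 11.9 in Model and 0.342 in Control. That made 3172, 2344 and 78.4 CPM, and a Chil3 UMI was found in 99.97%, 99.94% and 28.1% of T and B cells. A Chil3 UMI in a cell of PD00 or Model is thus no sign of expression. Interstitial macrophages, which lie in the tissue around airways and vessels, had 6705 CPM in PD00, 8693 in Model and 143.8 in Control. Their median cell held 0.303% Chil3 in PD00 and 0.234% in Model, near the T cell medians of 0.323% and 0.224%. A minority was high, with 54 of 448 PD00 cells and 108 of 605 Model cells at 1% or more. Alveolar macrophage markers stood at 1.57 times the T and B cell CPM in that gate of PD00 and 4.21 times in Model, and their part in the Chil3 value was not tested.

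Neutrophils are small cells of few UMIs, so the 2 measures of background part in them. Mature neutrophils had 7431 CPM of Chil3 in PD00, 5940 in Model and 561 in Control. Per cell they held 16.7 UMIs in PD00, 13.97 in Model and 1.37 in Control. These were 1.07 times (1.05 to 1.09), 1.17 times (1.15 to 1.20) and 4.002 times (3.67 to 4.37) the UMIs per T or B cell. By the rule on both measures, Chil3 of mature neutrophils was above background in Control but not in PD00 or Model. With every cell thinned to 500 UMIs it was above background in all 3. CPM and UMIs per cell are then the same measure, so the rule has no separate check per cell. Alveolar macrophage markers in this gate stood at 1.27 times the T and B cell level per cell in PD00, 1.84 times in Model and 4.43 times in Control, and their part in the values was not tested. Immature neutrophils, marked by granule genes such as Camp, Ngp and Ltf, were found in number in Model, with 77 cells against 3 in PD00 and 1 in Control. Their Chil3 level was 21263 CPM and 57.9 UMIs per cell, 4.85 times background (4.71 to 5.01), and 68 of the 77 cells reached 1% of their UMIs. Alveolar macrophage markers in the gate summed to 267 CPM, with 4 of the 8 detected, which was 12.2 times the T and B cell CPM and 6.53 times the level per cell, and their part in the Chil3 value was not tested. Eosinophils, at 13940 CPM in PD00 and 9939 in Model, held 0.986 and 0.933 times the UMIs per T or B cell. They were not above background by this rule. After thinning they were above it in both libraries, again without a separate check per cell.

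**Figure D4:**
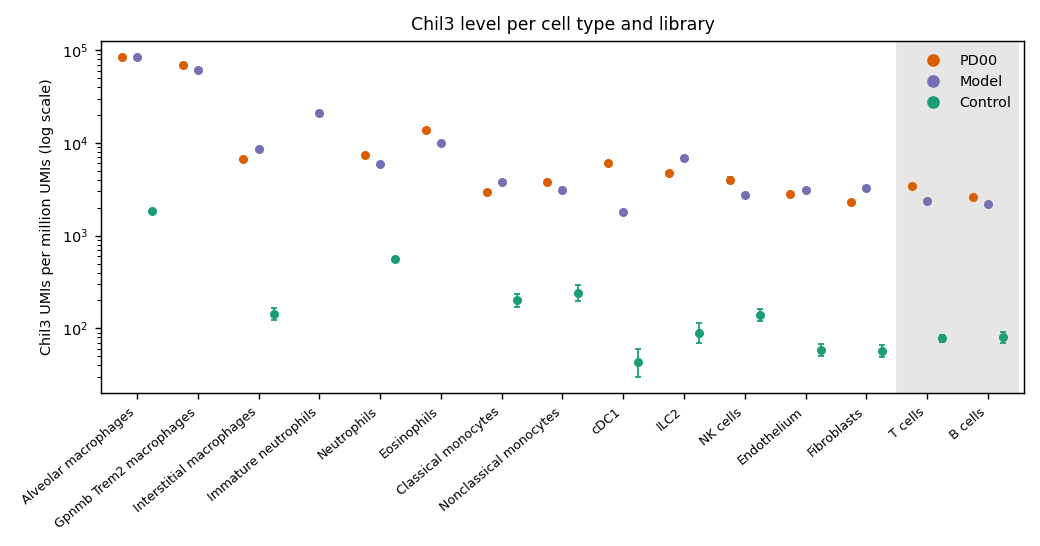
Chil3 in CPM (log scale) is shown for gates of at least 50 cells in each library, with 95% counting intervals; T and B cells, the free RNA background, are shaded. PD00 and Model exceed Control in every gate shown for all 3 libraries, the T and B cells included, and alveolar macrophages are at 84939 CPM in PD00, 84361 in Model and 1856 in Control.

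Chil4, the near copy of Chil3, was instead an airway gene. Airway secretory cells, the club and goblet cells that make mucus, held 70.1% of its UMIs in PD00 and 60.2% in Model. Their level was 4527 CPM in PD00 (4365 to 4692) and 23157 in Model (22835 to 23483), 5.12-fold lower in PD00 (4.92 to 5.32). A Chil4 UMI was found in 28 of 41 PD00 cells and 91 of 99 Model cells, with medians of 6 and 28 UMIs and highest cells of 1058 and 3628. The top cell alone held 35.6% of the gate's Chil4 UMIs in PD00 and 18.4% in Model, so these levels rest on few cells. The gate also differed between the libraries. Its airway marker list summed to 424303 CPM in PD00 and 227077 in Model, with medians of 6322 and 3228 UMIs per cell. The part of this in ratios within the gate was not tested. Of 28 Chil4-positive cells in PD00, 27 also had Clca1, a goblet cell product, and so did 90 of 91 in Model. Clca1 is in the gate's own marker list, and over the whole gate it was found in 36 of 41 and 98 of 99 cells. The overlap therefore does not set Chil4-positive cells apart from the rest of the gate.

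In Control 1 cell reached the airway gate, whose list holds goblet genes such as Clca1 and Muc5ac, and no ratio was formed. The 23 airway-rich cells of the Control alveolar type 2 gate had no Chil4 UMI (upper limit 9.32 CPM), and no other Control cell had one. The 9 such cells of PD00 had 2 Chil4 UMIs, 14.8 CPM (1.79 to 53.4). The airway marker list summed to 579 CPM in T and B cells of PD00, 361 in Model and 2214 in Control. In T cells alone it was at 617, 374 and 681 CPM, with 8, 10 and 3 of the 10 markers detected. B cells alone were at 476, 321 and 6655 CPM, with 6, 10 and 3 detected. Free Chil4 RNA in T and B cells was at 3.71 CPM in PD00 and 17.8 in Model, and 0 in Control, which at 3 counts allows up to 0.270 CPM.

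Small Chil4 counts above background appeared in macrophages. Alveolar macrophages had 403 UMIs in PD00, 602 in Model and 0 in Control. Gpnmb Trem2 macrophages had 422 in PD00 and 840 in Model. By CPM these were 2.74-fold (2.41 to 3.11) and 2.11-fold (1.87 to 2.37) lower in PD00, and free Chil4 RNA was lower there too. After thinning, alveolar macrophages of Model were no longer above background. Because the 2 genes are near copies, Chil4 was set against Chil3 in the same cells. It was 0.0267% of the 2 genes' UMIs in alveolar macrophages of PD00 (0.0241% to 0.0294%) and 0.0735% in Model (0.0678% to 0.0796%). In Control it was 0 beside 80019 Chil3 UMIs, with an upper limit of 0.00461%. The shares in PD00 and Model were both above that limit. Control had no Chil4 UMI in any cell, so the limit says nothing on free Chil4 RNA. In T cells, part of the background, the share was higher, at 0.114% in PD00 and 0.776% in Model. The part of free Chil4 RNA in the macrophage counts was not tested. Immature neutrophils of Model had 192 Chil4 UMIs, 916 CPM or 51.4 times the T and B cell CPM. In the same gate the airway marker list, all 10 markers detected, summed to 6472 CPM, 17.95 times the T and B cell level, and its part in that value was not tested.

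Chil1 was highest in alveolar type 2 cells and was also found in neutrophils. The alveolar type 2 gate as a whole had 1996 CPM in PD00 (1874 to 2124), 2380 in Model (2128 to 2655) and 910 in Control (842 to 983). The ratio of PD00 to Control was 2.19 (1.98 to 2.42) over the whole gate, where the airway list summed to 119371 CPM in PD00 and 366045 in Control. In the cells with more alveolar type 2 than airway UMIs, 26 in PD00, 9 in Model and 33 in Control, Chil1 was at 2628 CPM in PD00 (2464 to 2800), 2438 in Model (2177 to 2721) and 1889 in Control (1742 to 2046). Among these the ratio of PD00 to Control was 1.39 (1.25 to 1.54), under the 1.5-fold threshold. The alveolar type 2 marker list of these cells summed to 105168 CPM in PD00, 100229 in Model and 219605 in Control. The part of this in the ratio was not tested. The airway-rich cells of the gate were lower, at 295 CPM in PD00 and 119 in Control. The whole gate of Model had 10 cells, of which 1 held 52.3% of its Chil1 UMIs. Model was left out of ratios over the whole gate, which needed 20 cells. Mature neutrophils had 169.9 CPM in PD00 (149.8 to 192), 223 in Model (204 to 244) and 119 in Control (106 to 134). The ratio of Model to Control was 1.87 (1.61 to 2.18), and of PD00 to Model 0.761 (0.652 to 0.888). In contrast to Chil3, neutrophil Chil1 stood far from background, at 80.7, 57.7 and 67.2 times the UMIs per T or B cell. A UMI was found in 22.7% of neutrophils in PD00, 28.3% in Model and 20.7% in Control, against 0.440%, 0.690% and 0.393% of T and B cells. Airway secretory cells had 157 CPM in PD00 and 74.0 in Model, a ratio of 2.12 (1.53 to 2.95), on 103 and 63 UMIs.

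Chia1, the one true chitinase with an appreciable signal, was also highest in the alveolar type 2 gate. Over the whole gate it was at 2514 CPM in PD00 (2377 to 2657), 2521 in Model (2260 to 2802) and 180 in Control (151 to 214). A UMI was found in 32 of 35 PD00 cells, 9 of 10 Model cells and 22 of 56 Control cells, with medians of 32, 4 and 0 UMIs. PD00 was 13.9-fold higher than Control (11.6 to 16.8) over the whole gate. In the cells with more alveolar type 2 than airway UMIs Chia1 was at 2815 CPM in PD00 (2645 to 2993), 2614 in Model (2344 to 2907) and 400.4 in Control (334 to 476), and the ratio of PD00 to Control was 7.03 (5.84 to 8.52). It had a UMI in 24 of these 26 PD00 cells and 21 of these 33 Control cells. The alveolar type 2 marker list of these cells differed between the libraries, as given for Chil1, and its part in the ratio was not tested. The airway-rich cells of the gate held 231 Chia1 UMIs in 9 PD00 cells, of which 1 cell held 51.5%, and 1 UMI in 23 Control cells. In Model 1 cell held 67.3% of the gate's Chia1 UMIs, so its level there rests on that cell. The PD00 excess over Model across all cells stood beside 35 alveolar type 2 cells in PD00 and 10 in Model. Airway secretory cells had 420 CPM in PD00 and 301 in Model, a ratio of 1.40 (1.18 to 1.66), with a UMI in 16 of 41 and 12 of 99 cells. In the whole alveolar type 2 gate Chil1 was detected in 32 of 35 cells of PD00, 9 of 10 of Model and 41 of 56 of Control. Chil1 and Chia1 were detected together in 30, 8 and 19 of these cells, in the same order. In airway secretory cells of Model all 12 Chia1-positive cells also had Chil4, and in PD00 10 of 16 had it.

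**Figure D5:**
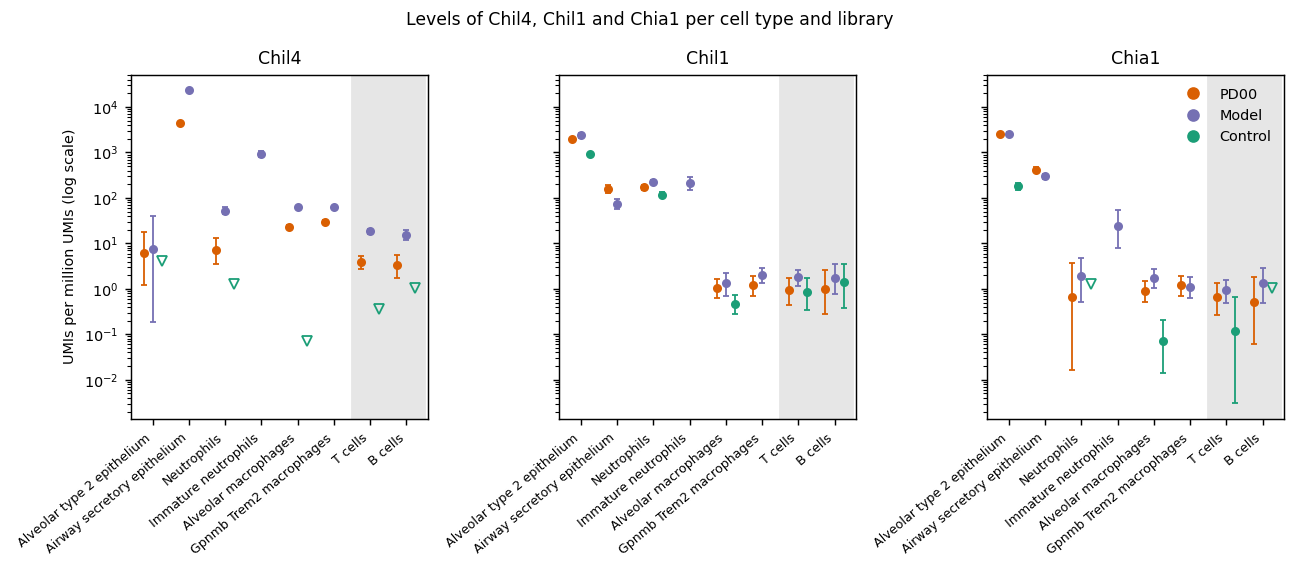
Levels of Chil4, Chil1 and Chia1 in CPM (log scale) per gate and library of at least 10 cells, with 95% counting intervals; open triangles mark 0 UMIs, drawn at the level of 3 counts, T and B cells are shaded, and the 14 Control cells of the Gpnmb Trem2 gate are left out. Chil4 is highest in airway secretory cells, and Chil1 and Chia1 in the alveolar type 2 gate, shown whole with the airway-rich cells it holds (9 in PD00, 1 in Model, 23 in Control).

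Patterns were compared over 45 sums per library and gate of at least 50 cells. The alveolar type 2 gate entered from Control alone, airway-rich cells included, and the airway secretory gate from Model alone. The genes most like Chil3 were Mmp12 (Pearson r of log2(CPM + 1) 0.95), Fbp1 (0.92) and Rnase2a (0.92). Mmp12, macrophage elastase, is itself in the Gpnmb Trem2 marker list. Those most like Chil4 were Clca1 (0.93), Bpifb1 (0.90) and Reg3g (0.89), of which Clca1 and Bpifb1 are airway gating markers. Chil1 was most like Lamb3 (0.81), Ccdc189 (0.78) and Lcn2 (0.77), of which Lcn2 is a gating marker of immature neutrophils. Chia1 was most like Krt23 (0.90), Gabrp (0.90) and Myh14 (0.89). The sums share libraries and free RNA, so these values are descriptions.

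Of 6 relatives in the same enzyme family, 5 were in the matrices and 4 had enough UMIs. Of these, 2 were at least 1.5-fold higher in Model than in Control, beside 12.3% of all genes, and 0 lower, beside 18.1%. The list median log2 ratio was 0.35 beside -0.13 over all genes. Chid1, a chitinase domain protein of lysosomes, was at 1.65 (1.51 to 1.81) and Chil5, a further gene of the chromosome 3 group, at 1.96 (1.32 to 2.98). Ctbs, which cuts the chitobiose core of glycoproteins, was at 0.980 and Ovgp1, oviductal glycoprotein, at 0.684 (0.483 to 0.963). Between PD00 and Model, Chil5 alone of the 4 passed the threshold, 35 UMIs against 77, a ratio of 0.471 (0.306 to 0.711). Of all genes 7.29% were lower there and 3.5% higher.

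Of the receptors and binding partners, 7 were measured in Model against Control, 2 of them at least 1.5-fold higher, beside 12.3% of all genes, and 2 lower, beside 18.1%, with a median log2 ratio of 0.16. The lower 2 were Cd44, which binds hyaluronan, at 0.385 (0.380 to 0.390), and Tlr2, at 0.118 (0.115 to 0.122), which in Control were at 1860 and 1024 CPM in alveolar macrophages. Lgals3, galectin 3, was at 1.15 (1.14 to 1.16) and Tmem219, named as a co-receptor for Chil1, at 0.894. The higher 2 were Sdc1, a plasma cell and epithelial proteoglycan, at 6.996 (6.28 to 7.82), and Fibcd1, a chitin-binding receptor, at 1.58 (0.866 to 2.96) on 31 and 19 UMIs. Between PD00 and Model 1 of 8 was lower, beside 7.29% of all genes, and 0 higher, beside 3.5%. The lower one was Il13ra2, a receptor chain for interleukin 13 and Chil1, with 20 and 35 UMIs, a ratio of 0.592 (0.324 to 1.05).

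Of 7 genes that handle the freed N-acetylglucosamine, 2 were at least 1.5-fold lower in Model than in Control, beside 18.1% of all genes, with a median log2 ratio of -0.33 over the list. The lower 2 were Nagk, the N-acetylglucosamine kinase, at 0.654 (0.622 to 0.687), and Gnpda2, a glucosamine-6-phosphate deaminase, at 0.660 (0.609 to 0.715). Gnpda1, the other deaminase, was higher in Model, at 1.56 (1.45 to 1.68). Hexa was at 0.827 and Renbp at 0.722. None of the 7 passed the threshold between PD00 and Model, beside 7.29% of all genes lower and 3.5% higher, and the median was 0.11.

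Of 8 genes of type 2 signalling, 2 were at least 1.5-fold higher in Model than in Control, beside 12.3% of all genes. None was lower, beside 18.1%. The higher 2 were the cytokines themselves, Il13 at 739 UMIs against 39, a ratio of 18.4 (13.3 to 26.0), and Il4 at 363 against 52, a ratio of 6.77 (5.05 to 9.23). The receptor chains, kinase and transcription factor with most UMIs did not pass, with Il4ra at 1.13, Il2rg at 0.904, Jak1 at 0.958 and Stat6 at 0.757. Between PD00 and Model 0 of the 8 passed the threshold, beside 7.29% of all genes lower and 3.5% higher. Il13 was at 0.729 (0.650 to 0.817) and Il4 at 0.970 (0.835 to 1.13).

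The list of genes known to be induced with Chil3 and Chil4 had 7 measured members. Of these, 6 were at least 1.5-fold higher in Model than in Control, beside 12.3% of all genes, and 1 lower, beside 18.1%. The median log2 ratio was 8.02 with Clca1, at 0 UMIs in Control, set at 3 counts. Retnla, a secreted resistin-like protein, was at 260 (242 to 280), Arg1, arginase, at 109 (94.1 to 126), and Clca1 at least 11756-fold higher. Mrc1, the mannose receptor, was lower, at 0.574 (0.566 to 0.582). Between PD00 and Model 4 of 7 were at least 1.5-fold lower, beside 7.29% of all genes, and 0 higher, beside 3.5%. The median was -1.21. Clca1 had 15195 UMIs in PD00 and 36384 in Model, a ratio of 0.433 (0.425 to 0.441), while Retnla was at 0.995 and Arg1 at 0.796 (0.779 to 0.812). Within airway secretory cells Clca1 was at 21632 CPM in PD00 and 24474 in Model, a ratio of 0.884 (0.865 to 0.903). Retnla was at 1.33 (1.31 to 1.35) there. In the same gate Itln1, an airway lectin, was 9.38-fold lower in PD00 (8.29 to 10.6) and Fcgbp, a mucus protein, 2.76-fold lower (2.45 to 3.12). Agr2, which helps mucins fold, was 1.53-fold lower (1.35 to 1.74). By CPM 3 of the list's airway genes were thus lower there together with Chil4 while Clca1 was nearly level. The gate's airway marker list summed to 424303 CPM in PD00 and 227077 in Model, and the part of this in these ratios was not tested.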

How the data were processed

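The 3' libraries came from a Chromium droplet kit, per the labels' protocols. The deposited matrices hold raw counts of UMIs, not normalised by the authors. Per the submitters' processing notes Cell Ranger 3.1.0, STAR and the mm10 build were used, whereas cellranger 5.0.0 stands in the matrices, per the file headers. The deposited barcodes numbered 9851 in PD00, 11772 in Model and 10133 in Control, and no free RNA correction was made.

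Filters removed cells below 500 UMIs or 200 genes or above 20% mitochondrial UMIs, and cells with a Scrublet score above 0.2 (scanpy 1.11.5) were removed, 274 in PD00, 252 in Model and 421 in Control. A cell joined the gate with the largest share of its markers detected, with at least 3 or 4 markers and no tie. Cells reaching 60% of the list of another family were set apart as mixed, 308 in PD00, 565 in Model and 176 in Control, and 1686, 2095 and 673 cells stayed ungated. Alveolar macrophages needed at least 3 of 8 alveolar markers, and other macrophages with at least 4 Gpnmb Trem2 markers formed their own gate. The rules of gating were set after the data were seen. The members, the gene lists and the gate markers were chosen with earlier results of these data known.

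UMIs were summed per library and gate and scaled to CPM of that sum. Intervals at 95% are exact Poisson for levels, Clopper-Pearson for shares and conditional-binomial for ratios (scipy 1.17.1), and were tested on simulated counts. UMIs clumped in single cells are wider than these intervals. For folds against 0 UMIs, 3 counts were put in its place. Genes with at least 50 UMIs over 2 libraries were measured, so Chit1 was not. All 5 members are named, with the 3 genes of closest pattern for each member of at least 200 UMIs, and from the lists up to 4 genes with most UMIs. One gene that the rule names is not reported here. Sdc1, Fibcd1, Il13ra2, Gnpda1, Gnpda2, Il4, Il13, Itln1, Fcgbp and Agr2 were named after their values were seen. Codons were aligned through their translation with Biopython 1.88, and all 5 members matched the RefSeq promoter table by symbol.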

Additional observations from a re-analysis of the deposited data

Results flagged for a closer look

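Between PD00 and Model, Chil3 and Chil1 had ratios on opposite sides of 1 in separate cell types, with counting intervals that leave out 1. Chil3 was at 1.007 in alveolar macrophages and 1.14 in Gpnmb Trem2 macrophages, but 0.771 in interstitial macrophages. The median interstitial cell went the other way, with 0.303% Chil3 in PD00 and 0.234% in Model. The call of that gate above background in PD00 was lost without its top cell and with thinned cells. It was also lost with at most 10% mitochondrial UMIs, 1 more marker per gate, T cells alone as background or a 5-fold threshold. Totals without mitochondrial, ribosomal protein and haemoglobin genes, and mixed cells left in their gate, lost it too. It held with at least 500 genes per cell, doublets kept, B cells alone as background and no shared barcodes. Chil1 was at 2.12 in airway secretory cells, of which PD00 had 41 and Model 99, but 0.761 in neutrophils. The difference between cell types was not tested, since each group had 1 library, and neighbouring cell types share free RNA.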

How the results depend on the processing

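No paired analysis was possible because each group had 1 library. The 3 members higher in Model than in Control and the 1 lower in PD00 than in Model kept these counts under the alternatives run for them, among them stricter cell filters, doublets kept, other scalings, thinning, a 2-fold threshold and, added after seeing the data, no shared barcodes. With equal weight per cell type the 3 higher members were Chil3, Chil1 and Chia1, since Chil4 had no value there against Control. Equal weight took in only cell types of at least 20 cells in both libraries, so no epithelial gate entered Model against Control. The 27 combinations above background ranged from 22 to 28 under the other alternatives, and were 16 with 5-fold in place of 2-fold. The 28 with thinned cells held 21 of the 27, without 6 and with 7 others, all of Chil3 in PD00 or Model. In thinned cells CPM and UMIs per cell are the same measure, so the per-cell check did not apply. Of 115 log2 ratios of single members, 75 stayed inside the counting interval of the reported ratio and 1 of at least 1.5-fold turned direction, Chil1 in PD00 against Control, at -0.0008 with every cell thinned to 500 UMIs. Thinned, Chil1 in PD00 against Model was also below 1, at 0.956. Thinning also gave bounds of 459 for Chil4 in Model and 68.6 in PD00 against Control, with fewer UMIs left to count, and put Chia1 at 3.65 for Model and 7.70 for PD00 against Control. Equal weight put Chia1 at 13.4 and Chil3 at 35.9 for Model against Control, with the epithelial and Gpnmb Trem2 gates left out. The cause of the other moves was not tested. Alveolar type 2 cells without the airway-rich ones, a split added after seeing the data, moved Chia1 in PD00 against Control to 7.03 and Chil1 to 1.39. Epithelial levels rest on few cells, and Chit1 was too rare to compare.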

Other observations

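Among the genes listed as induced together with Chil3 and Chil4, the airway members differed in how far they stood apart between PD00 and Model, and they are named here after their values were seen. Itln1, intelectin 1, a lectin of goblet cells, had 436 UMIs in PD00, 5758 in Model and 116 in Control, and was 12.7-fold lower in PD00 than in Model (11.6 to 14.1). Fcgbp, a mucus protein, had 394, 2090 and 1 UMIs in the same order, 5.12-fold lower in PD00 than in Model (4.60 to 5.72). Agr2, which helps mucins fold, had 384, 1076 and 2 UMIs, 2.70-fold lower in PD00 (2.40 to 3.05). Beside these stood 41 airway secretory cells in PD00, 99 in Model and 1 in Control. All 3 genes were also lower in PD00 than in Model within the airway secretory gate, by 9.38-fold, 2.76-fold and 1.53-fold. The level of the gate's own marker list differed between these libraries, as given above, and its part in these folds was not tested.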
